A study of Mus musculus with 2 samples.

Results

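The 33 genes described here encode proteins that act in DNA replication and S phase, the part of the cell cycle in which the genome is copied: the 6 subunits of the MCM helicase, and genes for origin licensing, fork enzymes, nucleotide supply, repair and chromatin. They were taken as a list of symbols, and all 33 were found among the 31053 genes of the deposited matrices. Single-cell RNA was measured in mouse bone marrow derived macrophages (BMDM) from wild-type 129Sv mice, with 1 library per group. Marrow cells of both groups were cultured with 10% serum and 50 ng/ml M-CSF, the growth factor that drives marrow cells to proliferate and become macrophages. On day 7 the THP group received 1 µg/ml of truncated, non-polymerizing Tamm-Horsfall protein (uromodulin, a glycoprotein made by the kidney tubule) and the vehicle group received 5% dextrose, each for 18 h. The labels do not say how many mice were used or whether marrow was pooled.

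In textbook outline, origins are licensed in G1 when the origin recognition complex, Cdc6 and Cdt1 load the ring of Mcm2 to Mcm7 onto DNA. Cyclin E with Cdk2 and the kinase Cdc7 then activate it by joining Cdc45 and the GINS complex, and polymerases, the sliding clamp PCNA and its loader follow. Many of these genes are transcribed by E2F factors, held back by the retinoblastoma family until cyclin-dependent kinases release them. Macrophage precursors in M-CSF divide, and mature macrophages and neutrophils divide little or not at all.

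The THP library held 12123 cells after filtering, with 224825484 unique molecular identifiers (UMIs, 1 for each captured RNA molecule), and the vehicle library held 10978 cells with 207662132 UMIs. The median cell had 16113 UMIs with THP and 17223 with vehicle. With 1 library per group there was no test and no p-value: differences are between 2 libraries, and treatment cannot be told apart from culture dish or library preparation. Intervals are 95% intervals for counting error only. Of the barcodes, 42 occurred in both libraries, 38 of them among kept cells. Levels are counts per 1e6 UMIs (CPM) summed over kept cells, and the ratio is the log2 ratio of CPM + 1, THP over vehicle. Over the 8012 genes with at least 10 CPM in 1 library or more, the median ratio was -0.18 and 67.6% of genes were lower with THP. TMM factors, which scale the libraries on the bulk of genes, raised every ratio by 0.29, and RLE factors by 0.28. Longer transcripts had lower ratios (rho of -0.55 by Spearman's rank correlation over 8008 genes, which are not independent replicates and come from the same 2 libraries). The macrophage label held for part of the cells: Adgre1 (F4/80) stood at 353 CPM with THP and 235 with vehicle. Beside it stood the progenitor gene Prtn3 at 1170 and 1905 CPM and the neutrophil granule gene Ngp at 1245 and 1952 CPM. Of the other macrophage markers used, C1qa, C1qb and C1qc were also higher with THP. Mrc1 (139 and 175 CPM) and Mertk (9.52 and 15.0 CPM) were lower.

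Promoter windows are shown for 6 of the genes because the values below set them apart: Dtl, Msh6, Cdc6 and Clspn had the lowest ratios of the list, and Mcm5 and Mcm6 are subunits of 1 complex with unlike ratios. Each runs from 250 bases before to 50 bases after the RefSeq start (GRCm38.p6), 300 bases 5′ to 3′ on the gene's strand. Capitals mark matches to TTTCCCGC, TTTCGCGC, TTTGCCGC or TTTGGCGC, 4 spellings of the E2F motif, on either strand. Matches on opposite strands can overlap and then appear as 1 longer run of capitals.
Dtl promoter, chr1:191575495-191575794, minus strand: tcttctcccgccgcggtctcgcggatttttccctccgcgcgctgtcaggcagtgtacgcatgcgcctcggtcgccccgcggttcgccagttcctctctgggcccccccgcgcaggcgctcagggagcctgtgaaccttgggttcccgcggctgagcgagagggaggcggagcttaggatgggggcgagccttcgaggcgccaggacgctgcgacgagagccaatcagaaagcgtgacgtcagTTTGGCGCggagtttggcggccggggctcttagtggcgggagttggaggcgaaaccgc
Msh6 promoter, chr17:87974800-87975099, plus strand: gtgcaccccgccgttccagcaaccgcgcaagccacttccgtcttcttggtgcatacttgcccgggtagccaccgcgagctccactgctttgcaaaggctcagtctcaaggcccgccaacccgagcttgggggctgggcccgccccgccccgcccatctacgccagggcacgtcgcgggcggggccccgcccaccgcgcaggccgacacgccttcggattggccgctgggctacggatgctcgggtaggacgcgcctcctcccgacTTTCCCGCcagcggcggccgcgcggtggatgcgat
Cdc6 promoter, chr11:98907901-98908200, plus strand: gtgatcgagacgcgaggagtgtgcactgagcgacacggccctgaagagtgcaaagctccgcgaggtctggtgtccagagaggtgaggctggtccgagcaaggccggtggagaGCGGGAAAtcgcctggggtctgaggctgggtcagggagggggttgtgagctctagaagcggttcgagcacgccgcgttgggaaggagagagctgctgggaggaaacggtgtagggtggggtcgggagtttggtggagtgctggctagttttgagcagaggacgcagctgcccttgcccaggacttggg
Clspn promoter, chr4:126556730-126557029, plus strand: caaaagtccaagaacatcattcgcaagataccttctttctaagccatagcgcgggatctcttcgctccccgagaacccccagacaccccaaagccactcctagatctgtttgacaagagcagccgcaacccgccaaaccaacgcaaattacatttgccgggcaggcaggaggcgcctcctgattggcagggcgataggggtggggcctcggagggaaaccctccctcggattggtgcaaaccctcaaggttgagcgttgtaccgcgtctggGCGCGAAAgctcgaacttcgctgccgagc
Mcm5 promoter, chr8:75109259-75109558, plus strand: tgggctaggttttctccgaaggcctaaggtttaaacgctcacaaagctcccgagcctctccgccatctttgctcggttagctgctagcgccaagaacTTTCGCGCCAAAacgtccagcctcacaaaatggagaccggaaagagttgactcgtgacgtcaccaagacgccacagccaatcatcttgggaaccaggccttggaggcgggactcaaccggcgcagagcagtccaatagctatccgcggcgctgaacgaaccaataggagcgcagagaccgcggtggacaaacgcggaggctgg
Mcm6 promoter, chr1:128359656-128359955, minus strand: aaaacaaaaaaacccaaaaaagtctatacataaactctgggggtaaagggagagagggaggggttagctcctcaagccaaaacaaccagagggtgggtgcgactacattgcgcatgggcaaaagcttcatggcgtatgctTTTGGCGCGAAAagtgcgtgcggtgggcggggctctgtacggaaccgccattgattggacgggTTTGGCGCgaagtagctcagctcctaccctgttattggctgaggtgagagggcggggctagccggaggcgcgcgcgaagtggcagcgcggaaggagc

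A match lay in the windows of 13 of the 27 list members that had a window (48.1%), against 704 of 27025 genes overall (2.60%) and 11 of 44 of the other replication genes listed below (25%). Dtl held TTTGGCGC at bases 243 to 250 of the window, and Msh6 held TTTCCCGC at bases 266 to 273, both next to the start site. In Mcm5, TTTCGCGC at bases 98 to 105 overlapped TTTGGCGC on the opposite strand at bases 102 to 109, and Mcm6 had a similar overlapping pair at bases 141 to 152 and a separate TTTGGCGC at bases 204 to 211. The ratio of the 13 genes with a match ran from -1.15 to -0.10 with a median of -0.52. That of the 14 without ran from -0.72 to 0.04 with a median of -0.29, so the groups overlapped. Genes with a match tended to have longer transcripts, and longer transcripts had lower ratios among all genes. The part of length or motif in this contrast was not tested. Mcm4, Gins2, Rfc2, Exo1, Ccne2 and Gmnn had no window in the table.

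Summed over the list, replication transcripts made up 2026 CPM of the THP library and 2583 CPM of the vehicle library, a log2 ratio of -0.35. All 33 genes reached 10 CPM in at least 1 library. 29 were lower with THP and 4 were marginally higher (Gins2, Pcna, Tyms and Tk1), and the median ratio was -0.37 against -0.18 over all genes. A 2-fold lower level was reached by 2 members, Dtl and Msh6, against 2.97% of all genes, and a 2-fold higher level by 0 against 0.911%. At 1.5-fold, 10 members were lower (17.3% of all genes were) and 0 higher (2.33% of all genes). Counting intervals lay apart for 29 members in the lower direction and for Gins2 in the higher direction, but they did so for 61.3% and 26.3% of all genes, so at this depth separated intervals are the ordinary case. The call depended on scaling. With TMM or RLE factors 22 members were lower and 11 higher, the median was -0.08 and -0.09, and 0 members were 2-fold lower (0.749% and 0.774% of all genes) or higher (1.73% and 1.71%). The share of all genes lower under these factors was not computed. Both factors move every gene alike, so the list median stayed below that of all genes. With or without them, 25 members lay below the all-gene median. At 1.5-fold, the 4 genes Dtl, Msh6, Cdc6 and Clspn were lower under both factors, beside 5.49% of all genes with TMM and 5.68% with RLE, and 0 were higher, beside 7.16% and 6.93%.

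**Figure D1:**
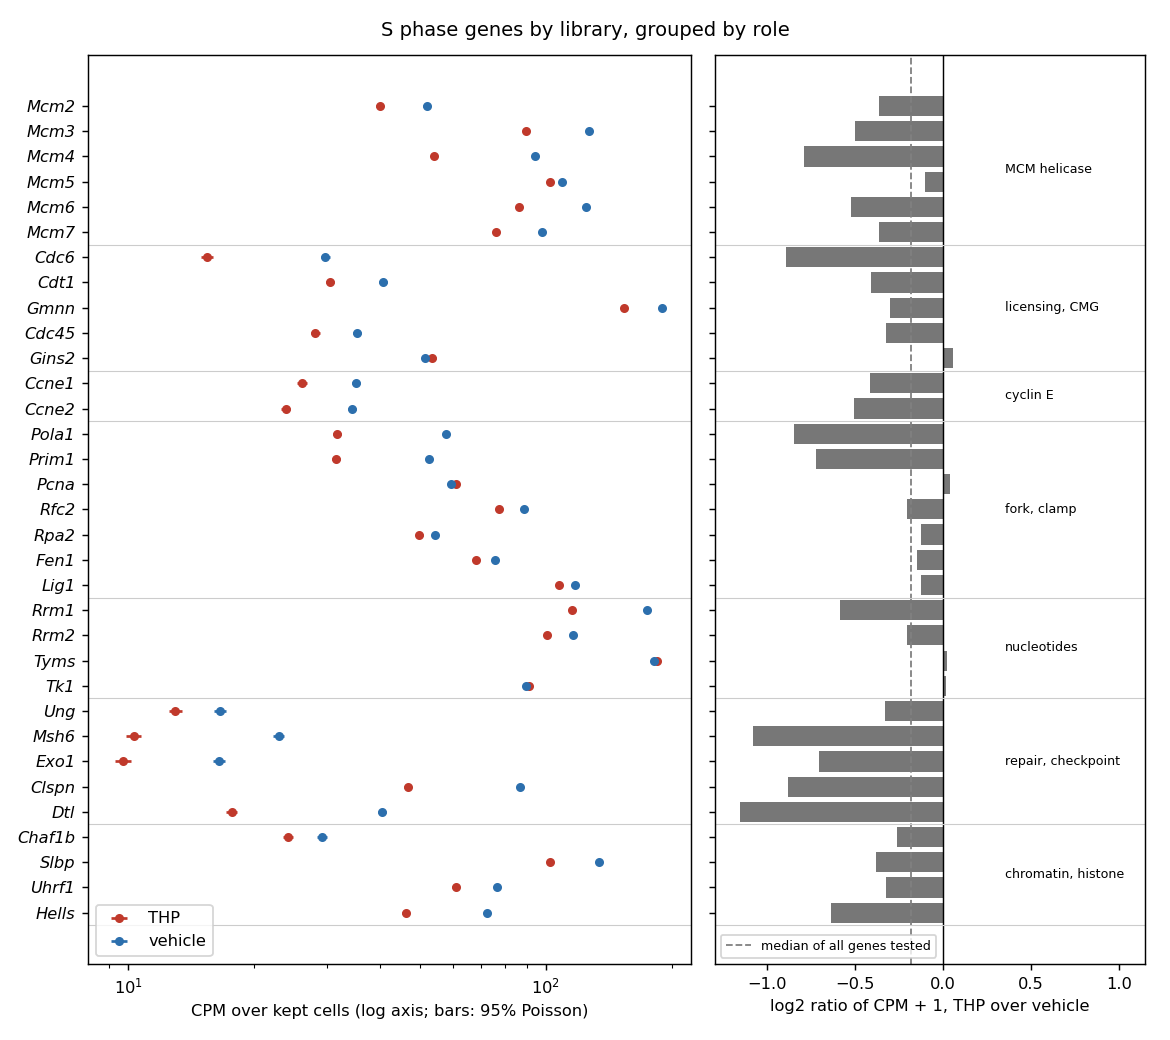
Left, level of each of the 33 genes in CPM (log axis) in the THP library (red) and the vehicle library (blue), with 95% Poisson intervals, ordered by role; right, log2 ratio of CPM + 1 with the median of all 8012 genes as a dashed line. Dtl, at -1.15, and Msh6, at -1.08, lie farthest to the left, while Gins2, Pcna, Tyms and Tk1 lie at or just above 0.

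All 6 MCM subunits, which form the ring that unwinds DNA at the fork, were lower with THP as scaled, but unequally. Mcm4 (chromosome 16, 15623897 to 15637400, minus strand, GRCm38) had 54.0 CPM (53.0 to 55.0) with THP and 94.2 CPM (92.9 to 95.5) with vehicle, a ratio of -0.79. Mcm5 (chromosome 8, 75109569 to 75128439, plus strand) had 102 CPM (101 to 103) and 109 CPM (108 to 111), a ratio of -0.10 that became 0.18 with TMM and 0.12 after correction for length. Between them, Mcm6 had 86.4 and 125 CPM (-0.52), Mcm3 89.6 and 127 CPM (-0.50), Mcm2 40.0 and 51.8 CPM (-0.37) and Mcm7 75.9 and 98.1 CPM (-0.37). The makeup of the MCM transcripts does not depend on how the libraries are scaled. Mcm4 supplied 12.1% (11.9 to 12.3) of all MCM2 to MCM7 UMIs with THP and 15.6% (15.4 to 15.8) with vehicle, and Mcm5 supplied 22.8% (22.5 to 23.0) and 18.1% (17.9 to 18.3). The UMI ratio of Mcm4 to Mcm5 was thus 0.529 with THP and 0.860 with vehicle. Mcm4 and Mcm5 had the lowest and highest ratio of the 6 subunits, so this quotient restates that contrast. Their longest transcripts are similar, 3589 and 3381 bases.

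Among the licensing and helicase activation genes, Cdc6, the loader that is used and destroyed in each cycle, was the lowest. Cdc6 (chromosome 11, 98907801 to 98923940, plus strand) had 15.5 CPM (14.96 to 15.99) with THP and 29.7 CPM (28.9 to 30.4) with vehicle, a ratio of -0.90. Its partner Cdt1 had 30.4 and 40.8 CPM (-0.41). Geminin (Gmnn), which binds Cdt1 and blocks relicensing after S phase begins, had 153 and 189 CPM (-0.30). It has the shortest transcript of the list, 1127 bases, and was the one of these genes whose ratio became lower after length correction, at -0.41. Cdc45 had 28.0 and 35.3 CPM (-0.32). Gins2, a subunit of the GINS complex that joins Cdc45 at the helicase, had 53.5 CPM (52.5 to 54.5) and 51.4 CPM (50.4 to 52.4), a ratio of 0.06. The 2 cyclin E genes, which drive entry into S phase, were both lower: Ccne1 had 26.1 and 35.1 CPM (-0.41) and Ccne2 had 23.8 and 34.3 CPM (-0.51).

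Of the 7 genes of the fork and clamp, the enzymes that prime new strands differed most. Pola1, the catalytic subunit of polymerase alpha (chromosome X, 93304767 to 93632155, minus strand), had 31.6 CPM (30.9 to 32.4) with THP and 57.7 CPM (56.7 to 58.7) with vehicle, a ratio of -0.85. Prim1, the primase subunit that acts with it, had 31.4 and 52.5 CPM (-0.72). Corrected for length, Pola1 was at -0.43 and Prim1 at -0.54. The genes that finish the lagging strand differed less: the flap nuclease Fen1 had 68.0 and 75.4 CPM (-0.15) and the ligase Lig1 107 and 117 CPM (-0.13). So did the single-strand binding subunit Rpa2, at 49.7 and 54.3 CPM (-0.12). The clamp loader subunit Rfc2 had 77.0 and 88.8 CPM (-0.20). These last 4 were higher with THP under TMM factors. Corrected for length, Fen1, Lig1, Rpa2 and Rfc2 were at -0.08, 0.07, -0.14 and 0.19. Pcna, the sliding clamp, had 60.99 CPM (59.97 to 62.02) and 59.3 CPM (58.2 to 60.3), a ratio of 0.04, but its annotated pseudogene copy Pcna-ps2 had 16.9 and 25.9 CPM. Reads of such copies can be split between them, and the sum of both was 77.9 CPM with THP and 85.2 CPM with vehicle, a ratio of -0.13.

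The 4 genes of nucleotide supply split in direction. Thymidylate synthase (Tyms), which makes dTMP, had 184 CPM (182 to 186) with THP and 181 CPM (179 to 183) with vehicle, a ratio of 0.02. Thymidine kinase (Tk1), which salvages thymidine, had 90.9 and 89.7 CPM (0.02). The 2 subunits of ribonucleotide reductase differed from each other. Rrm1, the large subunit, had 116 CPM (114 to 117) and 174 CPM (172 to 176), a ratio of -0.59, and Rrm2, the small subunit that is made mainly in S phase, had 100.3 and 116 CPM (-0.20). The Rrm1 transcript is 5475 bases and the Rrm2 transcript 2193, and after correction for length both ratios were -0.17.

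The 5 repair and checkpoint genes had the lowest median of any role, -0.88, and all 5 were lower by total UMIs, TMM and RLE and after length correction. Dtl (chromosome 1, 191537356 to 191575544, minus strand), the substrate receptor of the ubiquitin ligase that degrades Cdt1 on replicating DNA, had 17.7 CPM (17.1 to 18.2) with THP and 40.6 CPM (39.7 to 41.5) with vehicle. Its ratio was -1.15, or -0.80 corrected for length and -0.87 with TMM. Msh6 (chromosome 17, 87975062 to 87990892, plus strand), a mismatch recognition protein, had 10.3 CPM (9.89 to 10.7) and 22.9 CPM (22.3 to 23.6), a ratio of -1.08, or -0.78 and -0.79. Dtl and Msh6 were the only members past 1.5-fold after length correction, a rule that 4.65% of all genes met in the lower direction and 4.56%, but 0 members, in the higher. Claspin (Clspn), which carries the checkpoint signal from stalled forks, had 46.7 and 86.9 CPM (-0.88). Exo1, an exonuclease of mismatch repair, had 9.73 and 16.5 CPM, a ratio of -0.70 that was -0.17 after correction for its transcript of 7796 bases. Ung, which removes uracil from DNA, had 12.98 and 16.6 CPM (-0.33).

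The 4 genes of chromatin and histone supply were all lower as scaled. Hells, a chromatin remodeller needed for DNA methylation, had 46.1 CPM (45.2 to 47.0) with THP and 72.4 CPM (71.3 to 73.6) with vehicle, a ratio of -0.64 (-0.20 corrected for length). Slbp, which binds the stem-loop of histone mRNAs, had 102 and 134 CPM (-0.38). Uhrf1, which brings the maintenance methyltransferase to newly copied DNA, had 60.7 and 76.5 CPM (-0.33), and Chaf1b, a histone chaperone subunit, had 24.1 and 29.1 CPM (-0.26), which was 0.02 with TMM. Exons of 10 of the 33 genes overlap a gene on the opposite strand, among them Rfc2 with Lat2, Mcm7 with Cops6, Gins2 with Gse1 and Fen1 with Tmem258. Strand handling in the counting was not given in the sources used here, so the values of those genes are less certain.

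The members' ratios followed transcript length much as other genes did, with a Spearman's rho of -0.55 over the 33 genes. The 16 members shorter than 3381 bases, the member median, had a median ratio of -0.31 and 14 of them were lower. The 17 longer members had a median of -0.59 and 15 were lower. Of all genes 67.6% were lower as scaled, and this share was not computed for shorter and longer genes separately. After correction for the trend of all genes, 27 members were lower and 6 higher, with a median of -0.20. The share of all genes lower after that correction was not computed, so the count has no background. The part of transcript length in the members' ratios was not tested beyond this correction.

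**Figure D2:**
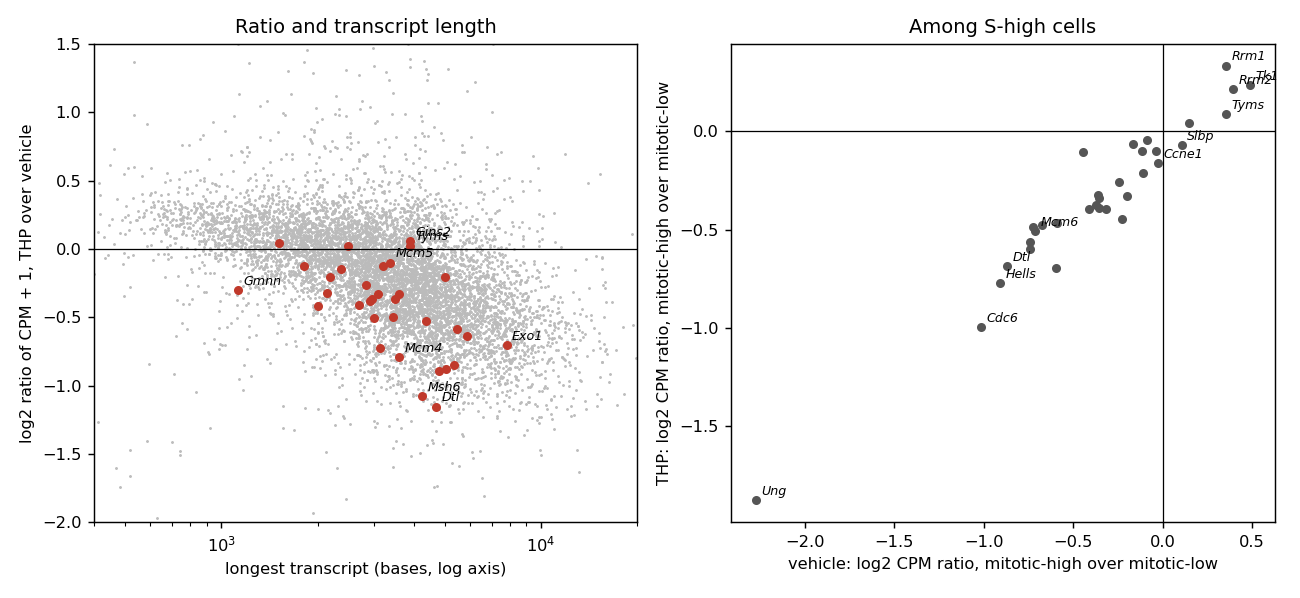
Left, log2 ratio of CPM + 1 against longest transcript (log axis) for 8008 genes (grey, 65 of them outside the axes) and the 33 replication genes (red), with Dtl, Msh6 and Mcm4 below most genes of their length and Gins2 and Tyms above. Right, for each of the 33 genes, log2 ratio of its CPM in high cells with many mitotic transcripts over its CPM in high cells with few, vehicle on the x axis and THP on the y axis; Ung lies lowest at -2.27 and -1.88, and Rrm1, Rrm2, Tk1 and Tyms lie above 0 in both libraries.

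To separate how many cells held many replication transcripts from how many each held, cells with at least 5000 UMIs were thinned to 5000 UMIs, which kept 10165 THP cells and 9012 vehicle cells and left out 1958 and 1966. The median cell then had 8 UMIs of the 33 genes with THP and 11 with vehicle. The 95th percentile was 25 and 30, and 4.72% and 3.26% of cells had none. The sums formed a continuous range with no valley. A cut at 16 UMIs (0.32% of the cell's UMIs), set after seeing the sums, marked 2386 cells with THP, 23.5% (22.7 to 24.3), and 3179 with vehicle, 35.3% (34.3 to 36.3). The share was thus different by -11.8 percentage points, THP minus vehicle. Without thinning, the same percentage of UMIs marked 18.9% and 28.7%. Within 2 UMIs of the cut lay 13.2% of THP cells and 14.4% of vehicle cells, so the high cells are a range, not a type. When the sums of THP cells were scaled by TMM factors, the share was 29.4% and the difference -5.87 points. With a score over the shorter members only the difference was -8.37 points, and over the longer members only it was -14.6 points.

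**Figure D3:**
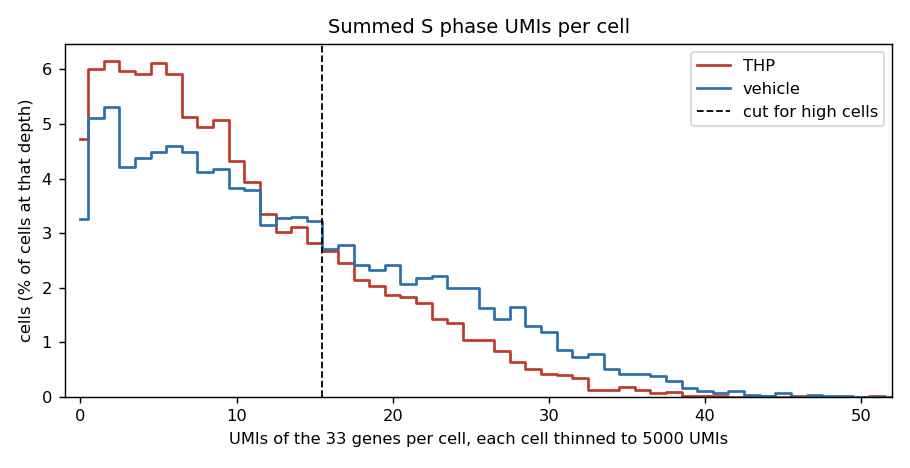
Share of cells (y axis, % of cells with at least 5000 UMIs) by the summed UMIs of the 33 genes after thinning each cell to 5000 UMIs (x axis), for the THP library (red) and the vehicle library (blue). The THP curve lies above vehicle at sums up to 12 and below it at sums from 13 to 43, and neither shows a valley at the cut of 16 (dashed line).

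By total UMIs, the list took a smaller part of the RNA of high cells with THP. They had 3953 CPM (3936 to 3971) of the 33 genes against 4423 CPM (4408 to 4439) with vehicle, a ratio of -0.16 that equals the median of the 8006 genes compared in those cells. With TMM factors it was 0.12 in the same cells and 0.022 in cells marked on TMM-scaled sums, so its direction depends on scaling. High cells had a mean of 81.1 and 99.5 member UMIs before thinning. The remaining cells had 1515 and 1657 CPM. The same cut on these genes bounds the sums of high and remaining cells in both libraries, which brings the amounts closer by construction. High cells supplied 42.5% of all UMIs of the list with THP and 59.0% with vehicle. Over the cells deep enough to thin, the list total was 2059 CPM with THP and 2634 with vehicle. Vehicle amounts combined with the THP proportions of high and other cells would give 2274 CPM, and THP amounts combined with the vehicle proportions 2377 CPM, all by total UMIs. Thinned high cells had UMIs of a median of 14 members with THP and 15 with vehicle, and other cells of 5 and 6.

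Each gene's own distribution was described by marking high cells with the other 32 genes only. Every member was higher in high than in other cells in both libraries, from 1.65-fold (Rrm1) to 6.79-fold (Ccne2) with THP and from 1.67-fold (Rrm1) to 7.30-fold (Ccne2) with vehicle, with medians of 2.60 and 2.62. The fold of all genes between such cells was not computed, so these values are not set against other genes. The steepest were the cyclin E genes, with Ccne1 at 77.0 against 12.9 CPM in the THP library and 79.5 against 12.5 CPM in the vehicle library. Ung followed at 3.998-fold and 4.67-fold and Cdc6 at 4.17-fold and 4.12-fold. Tyms (1.84-fold and 1.91-fold), Rfc2 (1.94-fold and 1.99-fold) and Rrm1 were among the flattest, as was Gmnn (2.10-fold and 1.95-fold). The order of the genes was alike in the 2 libraries (Spearman's rho 0.96 over 33 genes, which share the cells and the score).

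Within high and within other cells, the median difference between libraries was smaller. Both libraries were marked by the same cut on sums of these genes, which narrows differences by construction. No conclusion is therefore drawn from the smaller medians. Some members still differed. The cells compared differed in marker content. High cells had a median of 357 CPM of the macrophage markers with THP and 155 with vehicle, 336 and 971 CPM of the monocyte markers and 110 and 249 CPM of the progenitor markers. Other cells differed in the same directions for these lists, with 523 and 244 CPM of the macrophage markers, and the part of this mix in the ratios was not tested. Among high cells 24 members were lower with THP, with a median ratio of -0.14, where the median of 8006 genes was -0.16 and 66.3% were lower. Among other cells 21 were lower, with a median of -0.10 against -0.17 over 7975 genes, of which 67.1% were lower. Neither count is read as particular to the members. With TMM factors 12 were lower in high cells and 12 in other cells, and the matching share of all genes was not computed. Dtl had a ratio of -0.92 in high cells and -0.91 in other cells, Msh6 -0.87 and -0.92, Pola1 -0.71 and -0.63, Clspn -0.62 and -0.66, Mcm4 -0.65 and -0.56 and Cdc6 -0.62 and -0.59. The cyclin E genes differed little within either kind of cell, with Ccne1 at -0.05 and 0.04 and Ccne2 at -0.14 and -0.03. Gins2 was higher in both, at 0.20 and 0.23.

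Cells were further divided by the summed UMIs of 22 mitotic genes, thinned alike and also cut at 16. Cells high for both lists made up 4.96% of the THP library (4.54 to 5.40) and 11.9% of the vehicle library (11.2 to 12.6). Cells high for replication genes only were 18.5% and 23.4%, those high for mitotic genes only 28.3% and 29.3%, and those low for both 48.2% and 35.4%. Of the high cells, 21.1% (19.5 to 22.8) with THP and 33.8% (32.1 to 35.4) with vehicle were also high for mitotic genes. Among the remaining cells the shares were 37.0% and 45.2%. With THP sums scaled by TMM factors, cells high for both were 8.97%. Cells low for both lists had 1457 and 1462 CPM of the replication genes, close values by total UMIs that TMM would set apart with THP higher. Cells high for replication genes only had 4056 and 4609 CPM. The cut itself bounds these amounts in both libraries.

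Within high cells, 27 members were lower where mitotic transcripts were many than where they were few, in both libraries. The share of all genes lower in the same comparison was not computed, so this count is not set against other genes. Ung was the extreme, at 37.8 CPM in mitotic-low and 10.3 CPM in mitotic-high cells with THP, and at 47.7 and 9.87 CPM with vehicle, log2 ratios of -1.88 and -2.27. Cdc6 followed at -0.996 and -1.02, then Hells at -0.77 and -0.91. Dtl was at -0.68 and -0.87 and Cdt1 at -0.69 and -0.59. Members higher in mitotic-high cells in both libraries were Rrm1 (0.33 and 0.35), Rrm2 (0.21 and 0.39), Tk1 (0.23 and 0.49), Tyms (0.09 and 0.35) and Clspn (0.04 and 0.14), so all 4 nucleotide supply genes were among these 5. Slbp, the remaining member, was at -0.07 and 0.11.

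Cells were also assigned to classes by summed marker genes that include none of the 33, and 7 classes and the cells in none of them had at least 200 cells in each library. The mix differed: the macrophage gate held 26.8% of THP cells and 18.1% of vehicle cells, the myeloid progenitor gate 8.74% and 12.4%, and the monocyte gate 13.3% and 18.1%. The gates overlap, since 95.5% and 97.2% of progenitor-gate cells also passed another gate, mostly that for monocyte genes. Weighting the gates alike left the list ratio at -0.35. The list total was lower with THP in all 8 sets. It was highest in the progenitor gate, at 2641 CPM (2618 to 2663) with THP and 3161 CPM (3141 to 3181) with vehicle, a ratio of -0.26. The macrophage gate had 2021 and 2655 CPM (-0.39), the monocyte gate 2024 and 2638 CPM (-0.38), the MHC class II gate 1922 and 2541 CPM (-0.40) and cells in no gate 2053 and 2659 CPM (-0.37). The immature neutrophil gate had 1917 and 2365 CPM (-0.30) and the osteoclast-like gate 1535 and 1787 CPM (-0.22). Within these 7 sets the median ratio of all genes ran from -0.22 to -0.17, and with TMM factors of each gate the list ratio ran from -0.18 to -0.04.

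The mature neutrophil gate was lowest, at 321 CPM (292 to 352) with THP and 448 CPM (417 to 480) with vehicle. Mature neutrophils are known not to divide, and this level is given as a background for the other classes. Its cells had a median of 2191.5 and 1944 UMIs, far fewer than the other classes compared. With 25 and 20 cells deep enough to thin, no share of high cells is given for them.

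**Figure D4:**
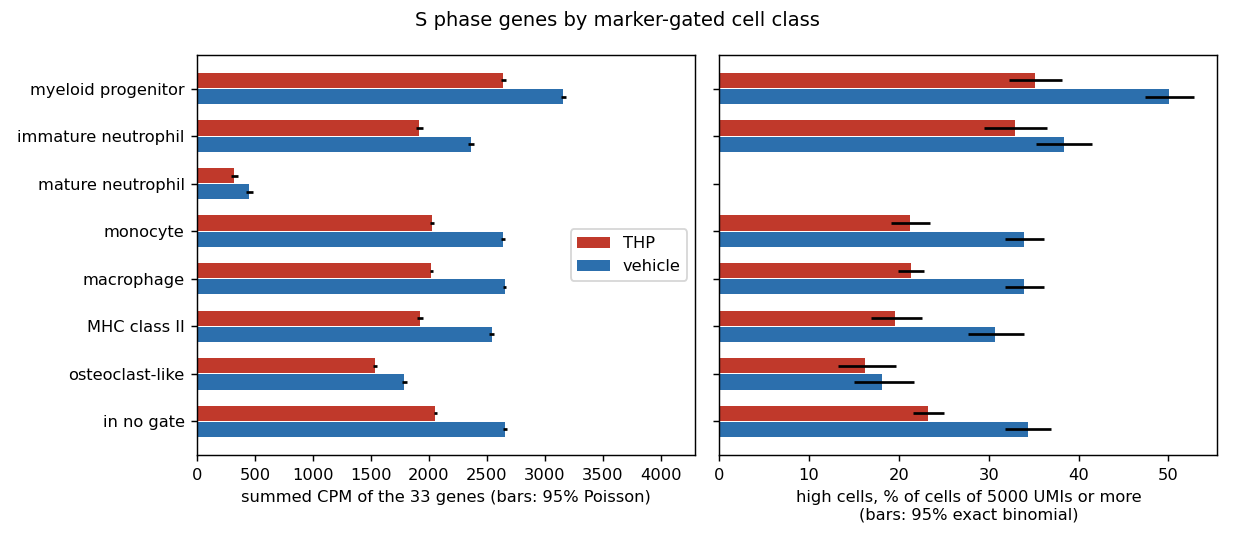
Left, summed CPM of the 33 genes (bars from 0, 95% Poisson intervals) in each marker-gated class for the THP library (red) and the vehicle library (blue); right, share of high cells among cells with at least 5000 UMIs, with 95% exact binomial intervals and no bar for the mature neutrophil gate. The progenitor gate is highest in both panels, and only the osteoclast-like and immature neutrophil gates have overlapping intervals of shares.

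The share of high cells was lower with THP in each of the 7 sets with a share. In the progenitor gate it was 35.2% (32.3 to 38.2) with THP and 50.1% (47.4 to 52.8) with vehicle. The macrophage gate had 21.3% and 33.9%, the monocyte gate 21.2% and 33.9%, the MHC class II gate 19.6% and 30.7% and cells in no gate 23.3% and 34.3%. The osteoclast-like gate had 16.3% (13.2 to 19.7) and 18.1% (15.0 to 21.6), with intervals that overlap. The immature neutrophil gate had 32.9% (29.4 to 36.5) and 38.4% (35.3 to 41.5), which also overlap, and with TMM scaling its difference turned to 0.27 points higher with THP. In the other 6 sets the TMM-scaled difference ran from -10.1 points in the progenitor gate to -0.38 in the osteoclast-like gate. The list's CPM within high cells had ratios from -0.20 to -0.11 by total UMIs, and from 0.0039 to 0.12 with TMM factors of each gate, so its direction also depends on scaling.

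By gene, 22 of the 33 members were lower with THP in every gate in which they reached 10 CPM, and so were 47.6% of 7995 genes overall. With TMM factors of each gate 15 members were, beside 29.4% of all genes, among them Mcm3, Mcm4, Cdc6, Pola1, Prim1, Clspn, Dtl and Msh6. Members 2-fold lower numbered 2 in the macrophage gate (2.79% of all genes), 2 in the monocyte gate (2.57%), 3 in the MHC class II gate (4.44%), 2 in cells of no gate (3.21%), 1 in the immature neutrophil gate (4.80%), 0 in the progenitor gate (2.23%) and 0 in the osteoclast-like gate (1.88%). The mature neutrophil gate, where 15 members reached 10 CPM, had 4 beside 18.6% of all genes. Members 2-fold higher numbered 0 in each set, beside 1.03%, 0.784%, 1.13%, 1.04%, 1.85%, 1.25%, 0.679% and 4.64% of all genes in the same order of sets. Dtl ran from -1.28 in the macrophage gate (15.4 and 38.8 CPM) to -0.87 in the osteoclast-like gate (13.1 and 24.7 CPM) among the 7 gates where it reached 10 CPM. Msh6 ran from -1.27 in the monocyte gate to -0.60 in the immature neutrophil gate. Tyms was higher with THP in all 8, by 0.01 to 0.18. The other members that were higher over all kept cells were mixed by gate. Pcna was lower with THP in 7 of 8 gates, Tk1 in 5 of 8 and Gins2 in 4 of the 7 where it reached 10 CPM. The Mcm4 to Mcm5 UMI ratio was lower with THP in every set: 0.500 against 0.737 in the macrophage gate, 0.550 against 0.898 in the monocyte gate, 0.563 against 0.957 in the progenitor gate, 0.633 against 1.04 in the immature neutrophil gate and 0.465 against 0.810 in the osteoclast-like gate. In the mature neutrophil gate it rested on 1 Mcm4 UMI with THP. The pair was picked for its unlike ratios over all kept cells, which include these sets.

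**Figure D5:**
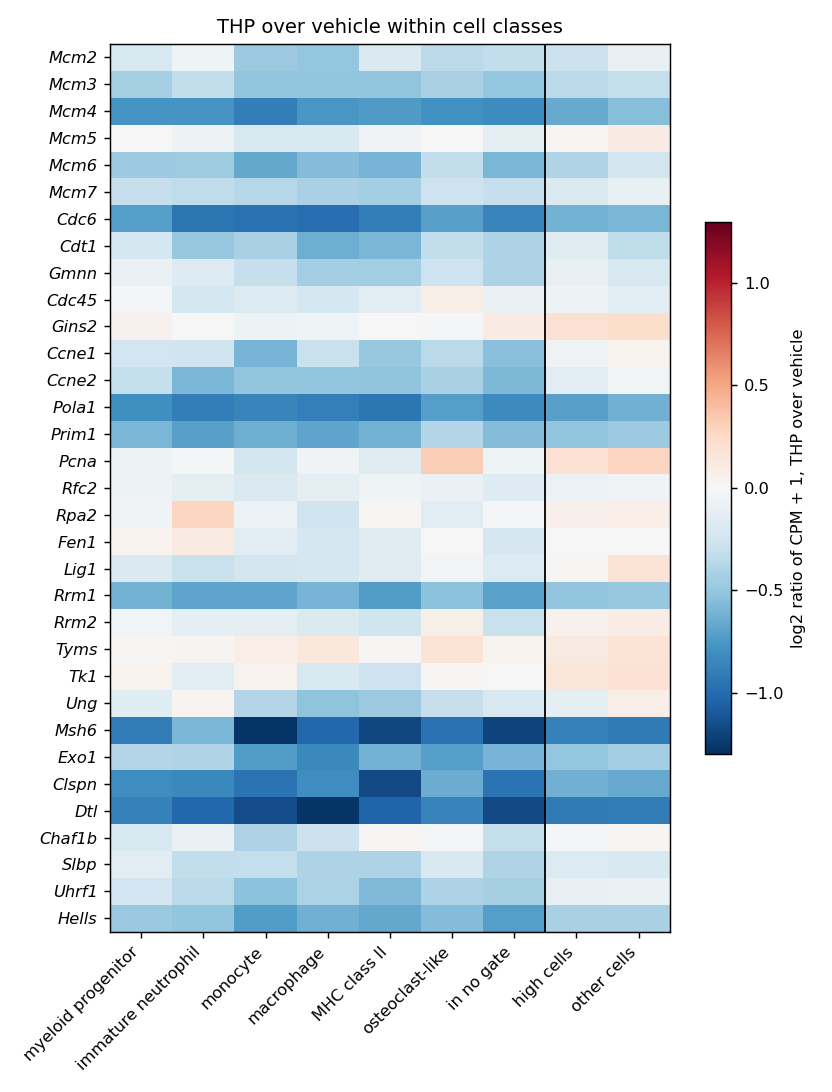
Log2 ratio of CPM + 1, THP over vehicle, for each of the 33 genes (rows, by role) in 7 cell sets and in high and other cells (columns; blue lower with THP, red higher). Mcm4, Cdc6, Pola1, Msh6, Clspn and Dtl are blue across the columns, and Tyms is at or just above 0 in all of them.

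Genes of the same processes outside the list showed a like spread. Of 57 other replication genes, 54 reached 10 CPM, with 48 lower and 6 higher and a median of -0.32 (-0.04 with TMM). Of all genes 67.6% were lower as scaled, and the share lower with TMM was not computed. With TMM 31 of these replication genes were lower and 23 higher. 6 were 2-fold lower (2.97% of all genes) and 0 higher (0.911%), and 0 in either direction with TMM. Among them were Atad2, a chromatin factor, at 91.6 CPM with THP and 208 with vehicle (-1.17), the helicase Blm at 9.61 and 22.8 CPM (-1.17), the polymerase adaptor Wdhd1 (-1.11), the nuclease Dna2 (-1.03) and the helicase Brip1 (-1.02). The highest were Rpa3 at 72.2 and 64.7 CPM (0.16), Rnaseh2a (0.13), Pole4 (0.09), Pole3 (0.04) and Dctpp1 (0.02), several of them short transcripts. Top2a, which untangles copied DNA, had 356 and 592 CPM (-0.73).

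Of 29 cell cycle regulators, 28 reached 10 CPM, with 20 lower and 8 higher, 3 of them 2-fold lower (2.97% of all genes), and a median of -0.44 (-0.16 with TMM). With TMM 15 were lower and 13 higher, and 1, Cdkn1b, was 2-fold lower (0.749% of all genes). Cdkn1b (p27), an inhibitor of cyclin E with Cdk2, had 18.7 CPM (18.1 to 19.2) with THP and 50.7 CPM (49.7 to 51.7) with vehicle, a ratio of -1.40 that stayed at -1.05 after length correction and -1.11 with TMM. The retinoblastoma family genes Rbl2 (17.03 and 37.3 CPM, -1.09) and Rb1 (22.7 and 44.5 CPM, -0.94) and the repressor E2f8 (27.1 and 56.9 CPM, -1.04) were also low, with Tfdp2 and E2f2 at -0.90. The inhibitor Cdkn1a (p21) had 314 CPM (311 to 316) and 278 CPM (275 to 280), a ratio of 0.18, and was higher in 7 of 8 gates. E2f5 (0.26), Fzr1 (0.15), E2f4 (0.10) and Cdk4 (157 and 148 CPM, 0.08) were the other highest. E2f1, the activator of many genes of the list, had 30.9 and 33.7 CPM (-0.12), which was 0.16 with TMM. Of 22 mitotic genes, 16 were lower and 6 higher, beside 67.6% of all genes lower. The median was -0.41, and 2 of the 22 were 2-fold lower (2.97% of all genes). With TMM 13 were lower and 9 higher, 0 of them 2-fold lower (0.749% of all genes), with a median of -0.12. The share of all genes lower with TMM was not computed, for these or for the regulators. Mki67, whose transcript is 10061 bases, had 245 and 503 CPM, a ratio of -1.04 that was -0.42 after length correction.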

How the data were processed

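The authors deposited raw UMI counts for each gene and barcode as sparse matrices, whose headers give version 3.1.0 of the software and version 2 of the format. The submitters' processing notes name Cell Ranger, bcl2fastq, STAR and mm10. The annotation release was not given in the sources used here. From these counts, cells with at least 1000 UMIs, at least 500 genes and at most 10% mitochondrial UMIs were kept. No doublet caller was run, and leaving out the 5% of cells with most UMIs was the alternative. UMIs were summed per library and divided by all UMIs of kept cells (CPM), and genes with at least 10 CPM in 1 library or more were compared on log2(CPM + 1). Poisson and binomial (Clopper-Pearson) 95% intervals are exact, and a count of UMIs gives no error between cultures.

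The members and lists were chosen with earlier results of these data known. All 33 genes were described by a fixed rule, along with up to 5 genes at each end of the other replication and regulator lists, and E2f1, Cdkn1a, Mki67 and Top2a. Of the genes that rule names, 1 is not reported here. TMM and RLE factors came from edgeR 4.0.16, and no count test was run. Transcript length was the longest transcript in GENCODE M21 (GRCm38), from which coordinates also came, and 99.6% of the 31053 gene identifiers matched. The length trend was fitted by lowess (statsmodels 0.14.6). Cells were thinned without replacement with a fixed seed. Classes were gated by the summed CPM of 13 marker lists. A cell took the list with the highest sum relative to its level and needed at least 3 UMIs. The gate levels and both cuts of 16 UMIs were set after the data had been seen. Scripts were tested on simulated data with 200 changed genes. Promoters are from RefSeq.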

Additional observations from a re-analysis of the deposited data

How the results depend on the processing

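The list ratio of -0.35 was -0.065 with TMM and -0.071 with RLE factors, -0.36 without the 5% of cells with most UMIs, -0.30 with equal weight per cell, -0.26 over shorter and -0.43 over longer members. The median member ratio of -0.37 was -0.081 with TMM, -0.087 with RLE and -0.20 corrected for length. Members 2-fold lower numbered 2 (2.97% of all genes), but 0 with TMM (0.749%) or RLE (0.774%), and 10 at 1.5-fold (17.3%). With equal weight per cell there was 1, and the share of all genes was not computed for that setting. The difference in high cells of -11.8 points was -10.1 at a cut of 8 UMIs (54.1% and 64.2%), -3.00 at a cut of 32 UMIs (1.14% and 4.14%), -9.77 unthinned, -5.87 with TMM, and -8.37 and -14.6 with scores over shorter and longer members. The amount in high cells, -0.16, was -0.25 at the cut of 8, -0.10 at 32, -0.18 after thinning to 2500 UMIs, and reversed to 0.12 with TMM in the same cells and to 0.022 in cells marked on TMM-scaled sums. The share high for both lists, -6.95 points, was -2.93 with TMM and -7.99 with both cuts at 8. The median fold of members in high cells, 2.60 with THP and 2.62 with vehicle, was 2.83 and 3.31 at the cut of 8 and 2.71 and 2.28 at 32.

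By gate, TMM gave -0.19 in mature neutrophil, -0.10 in immature neutrophil, -0.094 in progenitor, -0.18 in monocyte, -0.14 in macrophage, -0.17 in MHC class II, -0.042 in osteoclast-like and -0.11 in ungated cells. Stricter gates gave -0.96, -0.36, -0.37, -0.46 and -0.31 in the mature neutrophil, monocyte, macrophage, MHC class II and osteoclast-like gates. Without the 5% of cells with most UMIs the macrophage, osteoclast-like and ungated values were -0.41, -0.15 and -0.39. The other 30 recomputed values moved by less than their counting interval, or stayed within 1.5 times the count. Of these 76 recomputed values, 2 changed direction, both of the amount in high cells with TMM, and the difference in high cells of the immature neutrophil gate turned to 0.27 points with TMM. The cause of the shifts was not tested, beyond what scaling and length correction do by construction. No paired analysis was possible because each group has 1 library. Alternatives on length, TMM scaling of cell sums and the cuts of both lists were chosen after seeing the data. With 1 library per group no spread between cultures is known, and intervals understate the error.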
